A study of Mus musculus with 672 samples.

Results

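The genes described here are the core of the MHC class I antigen presentation pathway: B2m, H2-K1, H2-D1, Tap1, Tap2, Tapbp, Psmb8, Psmb9 and Nlrc5. They were taken by name, as 9 of the 26127 genes of a single-cell expression table, and all 9 were measured. The table followed female mouse embryonic fibroblasts (MEFs) on their way to induced pluripotent stem cells (iPSCs), in 567 single cells of 7 groups. The MEFs came from a Mus by Cast hybrid cross in which the Mus X carried a GFP transgene, and every group carried lentiviral doxycycline-inducible Oct4, Sox2, Klf4 and Myc with the rtTA activator. Cells sorted for an inactive Mus X (Xi-Mus) were collected as MEFs before doxycycline (day 0, 86 cells), as SSEA1+ intermediates under doxycycline and ascorbic acid at day 8 (82 cells), day 9 (83 cells), day 10 (80 cells) and day 12 (80 cells), and as iPSCs from picked colonies after withdrawal of both agents (90 cells). A further group held intermediates of day 12 from MEFs with an inactive Cast X (Xi-Cast, 66 cells).

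Each group had 96 labelled cells and was taken as 1 plate. This is an inference from that number, as the methods name a 96-well plate only for day 0. A group therefore counts as 1 sample, and no difference between groups was tested. Quartiles and binomial intervals below describe the cells of a plate and counting error only. The intermediates had been selected for SSEA1, and the MEFs had not. The sample titles of days 0, 8, 9 and 10 shared 1 prefix, and those of the 2 plates of day 12 and the iPSCs shared another. Each prefix was taken as 1 library pool, which is an inference from the titles. For day 12 or iPSCs against the earlier days, a group difference and a pool difference cannot be told apart.

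Class I molecules display peptides from inside the cell to CD8 T cells. The inducible proteasome subunits (Psmb8 and Psmb9) help cut the peptides, the TAP transporter (Tap1 and Tap2) carries them into the endoplasmic reticulum, and tapasin (Tapbp) helps load them onto a heavy chain (H2-K1 or H2-D1) paired with the light chain β2-microglobulin (B2m). Nlrc5 is a transactivator of these genes, which interferons and NF-κB also induce, and pluripotent cells are known for low class I surface levels.

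In the GRCm38 annotation, 7 of the 9 genes lie on chromosome 17 between 33915899 and 35267499, a span of 1352 kb, B2m lies on chromosome 2 from 122147686 to 122153083 and Nlrc5 on chromosome 8 from 94434356 to 94527272. In order along chromosome 17 these are Tapbp (from 33915899), H2-K1 (33996017 to 34000347), Psmb9 (from 34181987), Tap1 (34187553 to 34197225), Psmb8 (from 34197721), Tap2 (34203527 to 34216321) and H2-D1 (35262730 to 35267499). RefSeq windows of GRCm38.p6 held the bases before the start for 7 of the 9 genes and none for Tap2 and Nlrc5. The 250 bases before the starts of both heavy chain genes and of B2m are shown. These genes had the widest ranges of group means in absolute level, though not all in fold. The 225 bases between the RefSeq starts of Psmb9 and Tap1 are shown because the genes share them and are read in opposite directions. Capitals mark matches, on either strand, to 5 motifs chosen after the sequences had been read: GGGATTCCC (a core of NF-κB sites), TTTCACTTC and GAAANTGAA (forms of interferon-response elements), TGACGC (part of a cAMP-response-like element) and CCAAT (the NF-Y box, ATTGG on the other strand).
H2-K1: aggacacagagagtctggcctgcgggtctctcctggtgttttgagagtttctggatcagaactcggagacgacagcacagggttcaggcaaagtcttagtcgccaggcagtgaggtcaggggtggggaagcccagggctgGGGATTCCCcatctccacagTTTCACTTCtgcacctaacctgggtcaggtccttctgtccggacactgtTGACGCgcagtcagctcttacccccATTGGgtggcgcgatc
H2-D1: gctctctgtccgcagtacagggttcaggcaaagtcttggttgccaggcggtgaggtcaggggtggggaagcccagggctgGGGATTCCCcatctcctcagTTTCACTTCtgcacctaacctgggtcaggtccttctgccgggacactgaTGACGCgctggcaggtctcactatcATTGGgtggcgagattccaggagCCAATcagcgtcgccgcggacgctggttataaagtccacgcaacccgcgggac
B2m: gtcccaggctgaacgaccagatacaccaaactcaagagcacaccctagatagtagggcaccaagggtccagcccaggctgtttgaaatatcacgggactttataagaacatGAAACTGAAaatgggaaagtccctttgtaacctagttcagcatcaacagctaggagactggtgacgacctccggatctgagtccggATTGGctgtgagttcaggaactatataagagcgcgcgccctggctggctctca
Psmb9-Tap1: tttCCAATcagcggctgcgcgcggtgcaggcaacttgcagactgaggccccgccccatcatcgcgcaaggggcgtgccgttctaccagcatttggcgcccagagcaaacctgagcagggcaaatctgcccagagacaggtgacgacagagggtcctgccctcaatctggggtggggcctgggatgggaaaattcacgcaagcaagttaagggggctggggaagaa
The windows were chr17:34000348-34000597 on the minus strand for H2-K1, chr17:35262844-35263093 on the plus strand for H2-D1, chr2:122147437-122147686 on the plus strand for B2m and chr17:34187331-34187555, written on the strand of Tap1, for the shared region.

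The windows of H2-K1 and H2-D1 were close copies of each other, identical at 166 of 190 aligned bases (87.4%). Both held GGGATTCCC, TTTCACTTC, TGACGC and CCAAT in that order. No other window of the 7 genes held an exact match to any of the first 3, which were chosen after the windows had been read. Other forms of these sites, among them other NF-κB sequences, were not searched for. Whether the other windows lack such sites was therefore not tested. Of all 32851 windows of 250 bases, 0.301% held GGGATTCCC, 0.402% TTTCACTTC and 6.12% TGACGC. B2m held GAAANTGAA, as did 1.75% of all windows, and CCAAT, found in 33.8% of all windows, lay before B2m, Tapbp, H2-K1, H2-D1, Psmb9 and Tap1. A match is a description of these letters and not of a bound site.

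Levels are reads per 100000 reads of the cell, and a share of cells counts those with at least 1 read. The cells held 15053 to 2098345 reads (median 583643), and group medians ran from 505799 to 726843. At day 0 all 10 fibroblast markers had reads and the 12 pluripotency markers summed to a median of 0 per cell, and in iPSCs the pluripotency markers summed to a median of 698.9. Day 8 to day 12 cells had epithelial markers, with medians of 391.4 to 634.5 summed over 10 genes. Reads of 9 blood and macrophage markers, among them Ptprc, Lyz2, Adgre1 and Tyrobp, were all present in 1 cell each of day 10, day 12 and the iPSCs, and no other cell had more than 4 of them. The summed level of the 9 markers had group medians from 0 at day 0 to 21.5 at day 10. These 3 cells had the highest B2m level of their groups, and folds, ratios and correlations of the light and heavy chains in these groups are given with and without them.

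B2m, the light chain, was the gene with the widest range. At day 0 the lowest cell was at 37 reads per 100000, the median at 82.8 and the highest at 204.2, and every cell had reads. The medians were 25.6, 25.7 and 27.9 at days 8, 9 and 10, and then 9.81 at day 12 and 0 in iPSCs. The lower quartile of day 0 (64.3) lay above the upper quartile of every other group, the highest of which was 44.2 at day 10. The quartile ranges of days 8, 9 and 10 overlapped, and so did those of day 12 (0 to 24.3) and the iPSCs (0 to 1.29).

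The mean of B2m was 92.4 at day 0, 29.7 at day 8 and 2.30 in iPSCs, a level 3.11-fold lower at day 8 and 40.2-fold lower in iPSCs than at day 0. Of the iPSCs, 31 of 90 had B2m reads (34.4%, exact 95% binomial interval 24.7 to 45.2%), against 56 of 80 cells at day 12 (70.0%, 58.7 to 79.7%) and 86 of 86 at day 0. A single iPSC with reads of all 9 blood and macrophage markers held 46.4% of the B2m signal of its plate, at 96.1 reads per 100000, and without it the iPSC mean was 1.25 and 74.1-fold lower than at day 0. No other iPSC exceeded 17.5.

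The heavy chains took another course, with their highest levels in the intermediates. H2-K1 had a median of 6.64 at day 0 (quartiles 2.65 and 13.3), 20.6, 20.8, 24.1 and 16.7 at days 8, 9, 10 and 12 and 0.834 in iPSCs (quartiles 0 and 5.14). H2-D1 had a median of 10.9 at day 0 (quartiles 5.33 and 21.3), 19.4, 20.9, 24.5 and 12.8 at days 8, 9, 10 and 12 and 1.05 in iPSCs (quartiles 0.313 and 5.45). For both genes the quartile ranges of days 8, 9, 10 and 12 overlapped, and the upper quartile of the iPSCs lay below the lower quartile of days 8, 9 and 10.

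The mean of H2-K1 was 2.22-fold higher at day 8 than at day 0 (21.4 against 9.64), and that of H2-D1 was 1.61-fold higher (23.2 against 14.4). In iPSCs the means were 3.21 and 3.95, which for H2-K1 was 7.15-fold and for H2-D1 5.40-fold lower than at day 12. Without the cells that had blood and macrophage markers these folds were 7.77 and 5.86. Reads remained present in many iPSCs, in 60 of 90 cells for H2-K1 (66.7%, 55.9 to 76.3%) and in 78 of 90 for H2-D1 (86.7%, 77.9 to 92.9%), and after thinning every cell to 100000 reads the shares were 52.3% and 55.7%.

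**Figure D1:**
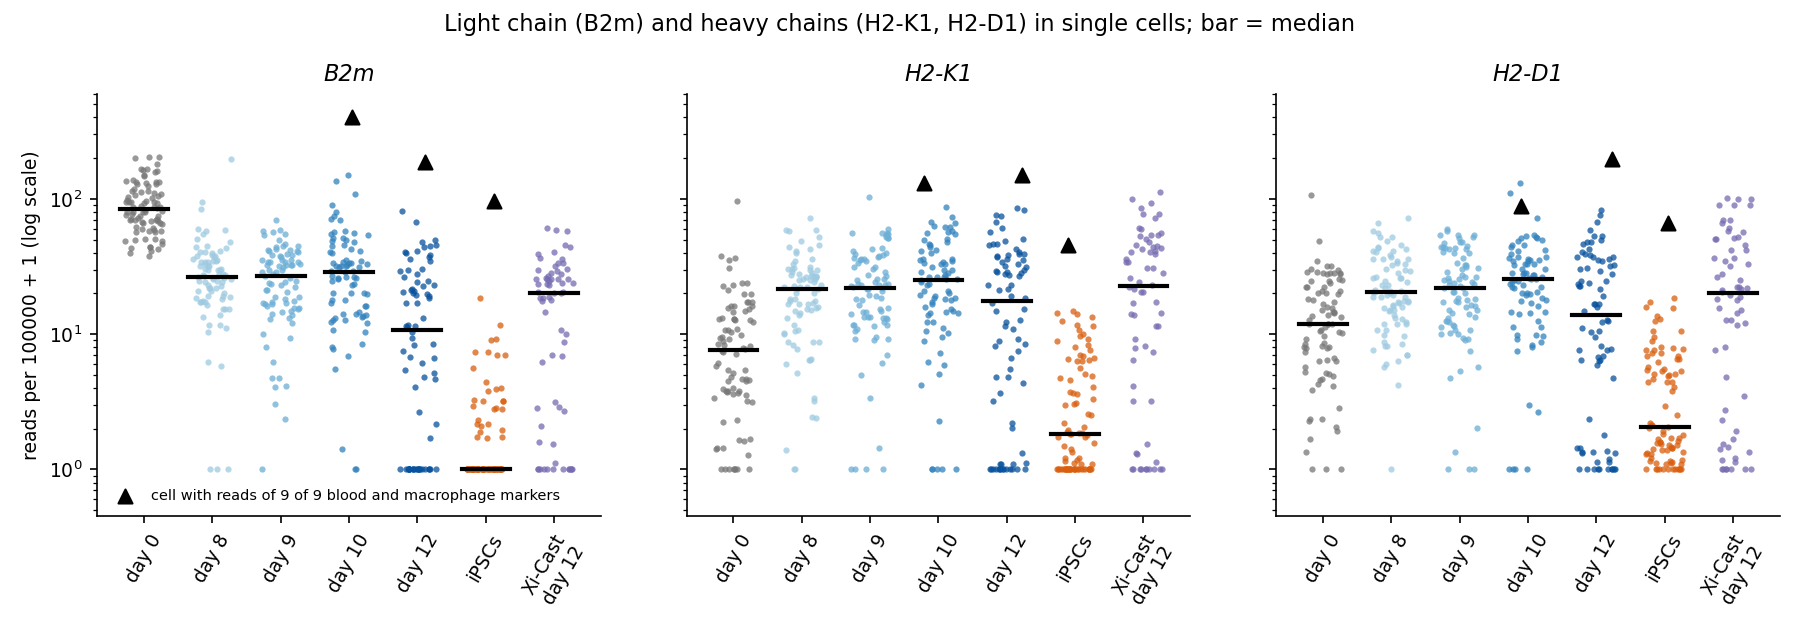
Reads per 100000, plus 1 and on a log scale, of B2m, H2-K1 and H2-D1 in each cell (points) of the 7 groups, with the group median as a bar and the 3 cells with reads of all 9 blood and macrophage markers as triangles. B2m stepped down from a median of 82.8 at day 0 to 0 in iPSCs, whereas both heavy chains had their highest medians, 24.1 and 24.5, at day 10.

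The balance of light to heavy chains differed between the groups. Per kilobase of exon, the mean B2m level was 107.5 against 8.86 for H2-K1 and H2-D1 together at day 0, a ratio of 12.1. The lengths were unions of all annotated exons, at 860 bases for B2m, 2938 for H2-K1 and 2579 for H2-D1. A transcript can be shorter than this union, so the ratios are not ratios of molecules. The ratio was 2.12, 1.77, 2.13 and 1.25 at days 8, 9, 10 and 12 and 1.02 in iPSCs, and 1.03 in Xi-Cast cells of day 12. Without the cells with blood and macrophage markers it was 1.94 at day 10, 1.20 at day 12 and 0.659 in iPSCs. At day 0, 1 cell had the highest value of both heavy chains (94.7 for H2-K1 and 106.5 for H2-D1).

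The low iPSC values were compared with genes of other cell states. Krt8, a keratin of the intermediates, stood at 0.726% of its day 12 mean in iPSCs with reads in 40% of them, and Krt19 at 1.09% with reads in 5.56%. B2m stood at 13.3% of its day 12 mean in iPSCs (8.22% without the cells with blood and macrophage markers), H2-K1 at 14% (12.9%) and H2-D1 at 18.5% (17.1%), all above both keratins. The share of iPSCs with reads was lower for B2m (34.4%) than for Krt8. The 2 pools shared 288 of 384 index pairs, as read from the sample titles, and reads that changed cells were not tested for.

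H2-K1 and H2-D1 have near-identical relatives in the H2 region. Of all 50-base words of their transcripts, the read length used, 9.63% for H2-K1 and 12.8% for H2-D1 also occurred in transcripts of other genes, with 141 words common to both. Only uniquely aligned reads were counted, so such reads are lost or uncertain. Mus and Cast alleles of these polymorphic genes were counted together against the reference genome, and a loss of reads from the Cast allele was not tested.

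The peptide transporter was scarce throughout. Tap1, an ATP-binding subunit of the transporter, had a mean of 2.07 at day 0, 0.976, 0.782, 0.807 and 1.74 at days 8, 9, 10 and 12 and 0.684 in iPSCs, with reads in 29.1% of day 0 cells and 14.4% of iPSCs. Tap2, its partner, had a mean of 0.901 at day 0, with reads in 23 of 86 cells (26.7%, 17.8 to 37.4%). At day 8 the mean was 0.163 with reads in 3 of 82 cells (3.66%, 0.761 to 10.3%), and in iPSCs it was 0.122 with reads in 3 of 90 cells (3.33%, 0.693 to 9.43%). The Tap2 intervals of day 8, day 9, the iPSCs and Xi-Cast cells lay below that of day 0, whereas those of Tap1 overlapped between all groups.

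Tapasin had the narrowest fold range of group means of the 9 genes. Tapbp had a mean of 10.8 at day 0, 10.1, 5.81, 12.2 and 9.44 at days 8, 9, 10 and 12 and 4.52 in iPSCs. Medians ran from 7.57 at day 0 to 1.09 in iPSCs, and reads were found in 83.7% of day 0 cells and 55.6% of iPSCs. The quartile ranges overlapped between all 7 groups. Reads of Tapbp and of the start of Psmb9 and Tap1 fall where annotated genes overlap, and the protocol kept no strand, so part of these reads is uncertain.

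The inducible proteasome subunits had their highest means at day 12. Psmb8 (LMP7) had a mean of 0.763 at day 0, 0.186, 0.206, 0.783 and 2.33 at days 8, 9, 10 and 12 and 1.22 in iPSCs. Psmb9 (LMP2) had a mean of 0.138 at day 0, 0.141, 0.319, 0.446 and 1.33 at days 8, 9, 10 and 12 and 0.715 in iPSCs. The share of cells with Psmb9 reads was 2 of 86 at day 0 (2.33%, 0.283 to 8.15%), 21 of 80 at day 12 (26.3%, 17 to 37.3%) and 20 of 90 in iPSCs (22.2%, 14.1 to 32.2%). The intervals of day 12 and iPSCs lay above those of day 0 and day 8. No group reached a mean of 5 for either gene, and the highest single cell held 19.4% of the Psmb8 signal at day 12. Without the cells with blood and macrophage markers the day 12 means were 2.12 for Psmb8 and 1.33 for Psmb9.

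In iPSCs the subunits tended to occur in the same cells. Psmb9 reads were found in 10 of the 17 iPSCs with Psmb8 reads (58.8%) and in 13.7% of the other iPSCs, and in 8 of the 13 iPSCs with Tap1 reads (61.5%) and 15.6% of the others. Spearman's rho over the 90 cells was 0.45 for Psmb8 with Psmb9 and 0.42 for Tap1 with Psmb9, and 0.42 and 0.39 without the cell with blood and macrophage markers. Cells share their plate and differ in depth, so these are descriptions of 1 plate.

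Nlrc5, the class I transactivator, had reads in few cells at day 0, day 12 and in iPSCs. Its mean was 0.115 at day 0, 1.91, 1.72, 1.44 and 0.259 at days 8, 9, 10 and 12 and 0.0904 in iPSCs. Reads were present in 3 of 86 cells at day 0 (3.49%, 0.725 to 9.86%), 20 of 82 at day 8 (24.4%, 15.6 to 35.1%), 27 of 83 at day 9 (32.5%, 22.7 to 43.7%) and 17 of 80 at day 10 (21.3%, 12.9 to 31.8%). At day 12 they were present in 6 of 80 cells (7.50%, 2.80 to 15.6%) and in iPSCs in 1 of 90 (1.11%, 0.0281 to 6.04%), and in Xi-Cast cells of day 12 in 12 of 66 (18.2%, 9.76 to 29.6%).

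**Figure D2:**
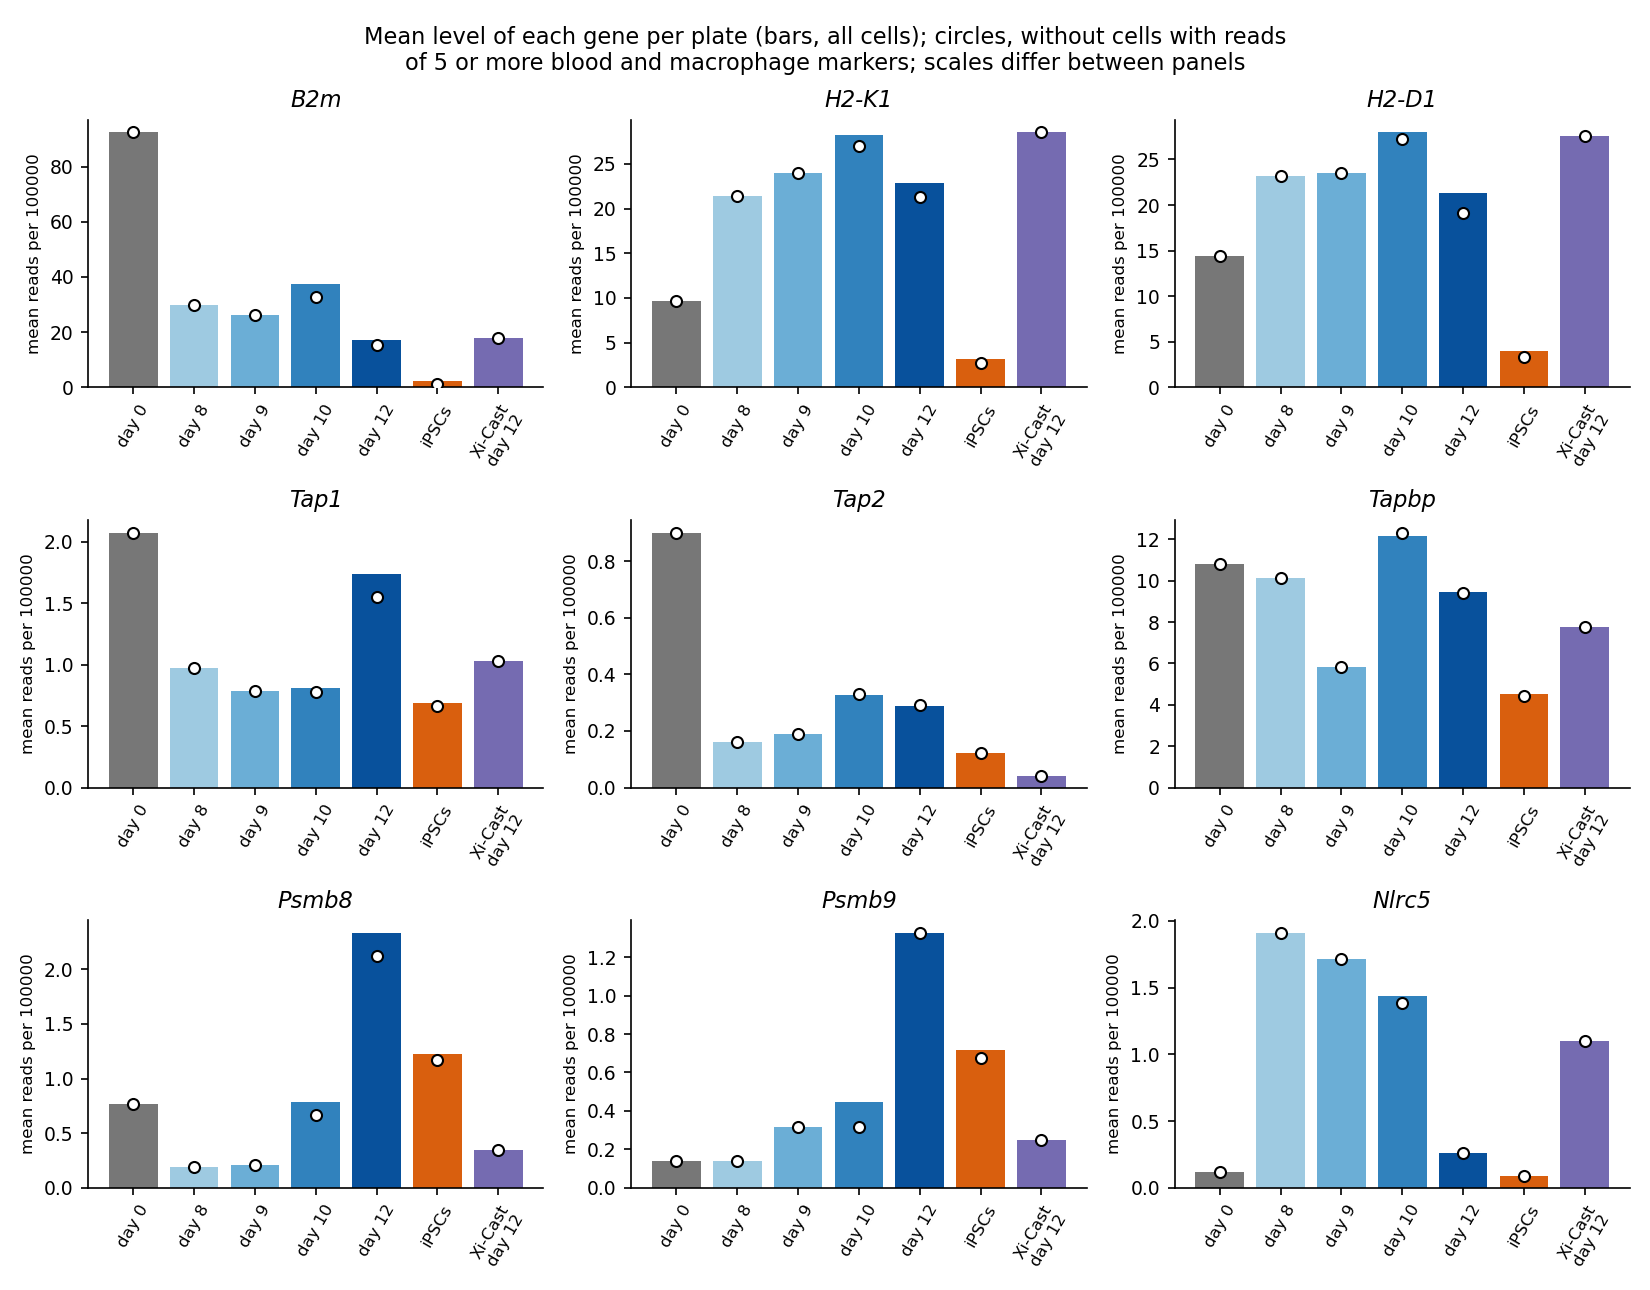
Mean reads per 100000 of each of the 9 genes in each group (bars, all cells), with the mean without the cells with blood and macrophage markers as circles and a separate linear scale in each panel. B2m was highest at day 0 (92.4), H2-K1 and H2-D1 at day 10 or in Xi-Cast cells, Psmb8 (2.33) and Psmb9 (1.33) at day 12, and Nlrc5 at day 8 (1.91).

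**Figure D3:**
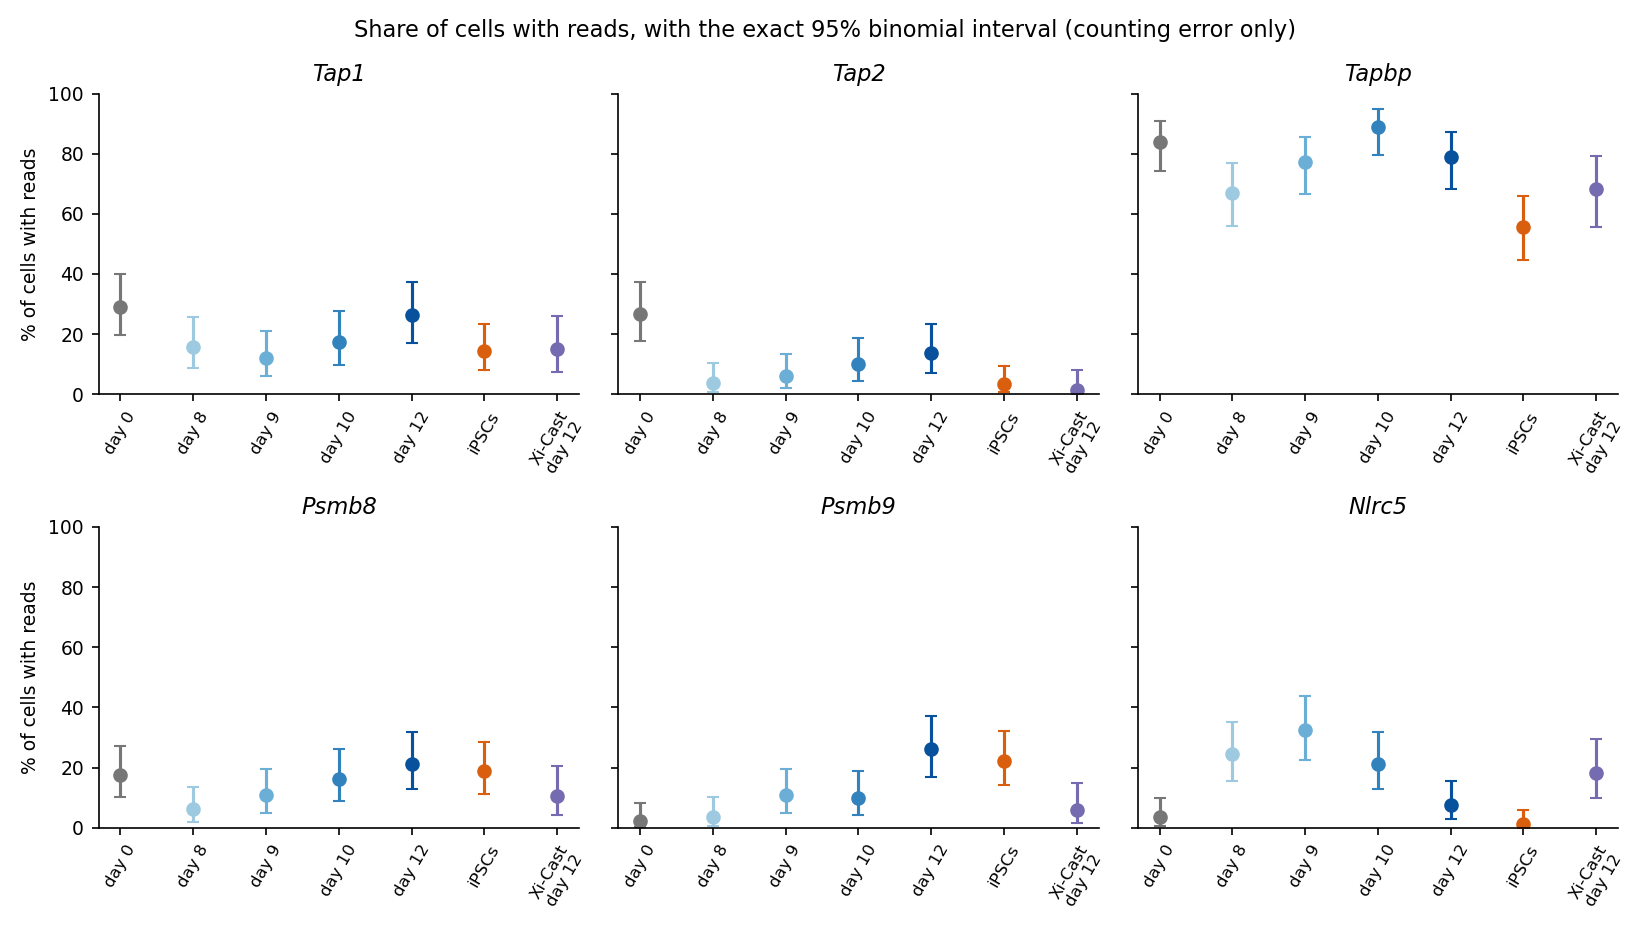
Percent of cells with at least 1 read of 6 genes in each group, with exact 95% binomial intervals that cover counting error only. Tap2 was most frequent at day 0 (26.7%), Psmb9 at day 12 (26.3%) and Nlrc5 at day 9 (32.5%), and Tapbp had reads in over 55% of the cells of every group.

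Counted gene by gene, with a ratio of means plus 1, the first step from MEFs to day 8 moved the 9 genes in both directions. B2m was at least 2-fold lower (log2 ratio -1.61), while 5.99% of all genes were lower by that much. H2-K1 (log2 ratio 1.08) and Nlrc5 (1.38) were at least 2-fold higher, against 8.22% of all genes. Of genes that reached a mean of 5 in the higher group, 16.7% were lower and 24.3% higher, beside 1 lower (B2m) and 1 higher (H2-K1) of the 4 class I genes at that level. The median log2 ratio was -0.08 over the 9 genes and 0.00 over all genes. When the groups were scaled by the median ratio of 2329 genes, which moved day 8 against day 0 by 0.30, H2-K1 was no longer 2-fold higher, and the calls over all genes turned from 1566 lower and 2148 higher to 2005 and 1672.

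Between day 8, day 9 and day 10 none of the 9 genes differed by 2-fold. Few genes did: 0.299% were lower and 0.387% higher at day 9 than at day 8, and 0.157% were lower and 0.674% higher at day 10 than at day 9. Tapbp came nearest, with log2 ratios of -0.71 at day 9 and 0.95 at day 10. At day 12, across the boundary of the pools, B2m was 2.17-fold lower than at day 10 (log2 ratio -1.07, -1.07 without the cells with blood and macrophage markers, and -0.93, short of 2-fold, with a pseudocount of 5), with 1.15% of all genes lower and 1.29% higher. Psmb8, at a log2 ratio of 0.90, and Nlrc5, at -0.95, lay just short of 2-fold.

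From day 12 to iPSCs, within 1 pool, the light chain and both heavy chains were at least 2-fold lower, and no gene of the 9 was higher. The log2 ratios were -2.47 for B2m, -2.51 for H2-K1 and -2.17 for H2-D1, and -2.85, -2.58 and -2.24 without the cells with blood and macrophage markers. Of all genes 5.6% were at least 2-fold lower and 1.46% higher, and 15.3% were lower of genes that reached a mean of 5 in the higher group, beside 3 of the 4 class I genes at that level. The median log2 ratio was -0.70 over the 9 genes and 0.00 over all genes.

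Between the end points, iPSCs against day 0 MEFs, B2m (log2 ratio -4.82), H2-D1 (-1.64), H2-K1 (-1.34) and Tapbp (-1.10) were at least 2-fold lower. Without the iPSC with blood and macrophage markers these were -5.38, -1.85, -1.51 and -1.12. None was at least 2-fold higher, with 8.21% of all genes lower and 8.93% higher. Of genes that reached a mean of 5, 25.1% were lower, and all 4 class I genes at that level were among them. Psmb9 (0.59) and Psmb8 (0.34) had the only positive log2 ratios of the 9. Median-ratio scaling moved this comparison by 0.35 and turned the calls over all genes from 2146 lower and 2333 higher to 2772 and 1710, and Tap1 then joined the other 4 class I genes at 2-fold lower (log2 ratio -1.09).

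The Xi-Cast intermediates of day 12 had light and heavy chain levels near those of the Xi-Mus plate. B2m had a mean of 18.0 against 17.3, H2-K1 28.5 against 22.9 and H2-D1 27.6 against 21.3. Without the cell with blood and macrophage markers the Xi-Mus means were 15.2, 21.3 and 19.1. Psmb8 was lower in Xi-Cast cells (0.345 against 2.33, log2 ratio -1.31, or -1.21 without the cell with blood and macrophage markers), and it was the only gene of the 9 with a 2-fold difference. Of all genes 0.869% were at least 2-fold lower and 0.26% higher. Psmb9 was at 0.247 against 1.33 and Nlrc5 at 1.10 against 0.259, short of 2-fold on the scale of means plus 1. Psmb9 reads were found in 4 of 66 Xi-Cast cells (6.06%, 1.68 to 14.8%), below the interval of the Xi-Mus plate. The plates differed in the inactive X, in the starting culture and in the cells sorted, and these cannot be told apart.

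At day 12 the plates held cells with and without high class I levels. The sum of H2-K1 and H2-D1 was under 10 reads per 100000 in 27 of 80 Xi-Mus cells (33.8%, 23.6 to 45.2%) and in 19 of 66 Xi-Cast cells (28.8%, 18.3 to 41.2%), against 2 of 82 cells at day 8 (2.44%, 0.297 to 8.53%) and 5 of 80 at day 10 (6.25%, 2.06 to 14%). In iPSCs 66 of 90 cells were under it (73.3%, 63 to 82.1%), and at day 0 24 of 86 (27.9%, 18.8 to 38.6%). Near that limit, sums from 5 to 20 were found in 13 Xi-Mus and 10 Xi-Cast cells of day 12, 35 iPSCs and 30 day 0 cells, against 13 cells at day 8 and 6 at day 10, so the iPSC and day 0 shares depend more on it. B2m reads were also absent in 22 of the 27 Xi-Mus cells under 10, whereas none of the 24 day 0 cells under 10 lacked B2m.

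The cells of day 12 were then divided by reads of Dppa4, a gene of late reprogramming and pluripotency. In the Xi-Mus plate 38 cells had Dppa4 reads and 42 had none. B2m had a median of 0 in cells with Dppa4 reads (quartiles 0 and 4.91) and 20.1 in cells without (11 and 32.7). H2-K1 had medians of 1.11 (quartiles 0 and 8.12) and 29.6 (20.9 and 45), and H2-D1 of 1.08 (0.154 and 6.71) and 29.7 (18.8 and 41.2). For all 3 genes the quartile ranges did not overlap.

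The Xi-Cast plate showed the same order in 33 cells with and 33 without Dppa4 reads. B2m had medians of 1.69 and 24.6, H2-K1 of 5.47 and 40.3 and H2-D1 of 2.47 and 33.6. Here too the quartile ranges did not overlap. The mean of cells without Dppa4 reads was 2.93-fold higher for B2m, 2.27-fold for H2-K1 and 2.66-fold for H2-D1, and in the Xi-Mus plate 3.58-fold, 4.80-fold and 4.88-fold. Without the cell with blood and macrophage markers the Xi-Mus values were 3.05-fold, 4.45-fold and 4.32-fold.

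In each plate these 3 genes were at least 2-fold lower in cells with Dppa4 reads and none of the 9 was at least 2-fold higher. Of all genes, 6.41% were lower and 4.36% higher in the Xi-Mus plate, and 3.73% were lower and 2.46% higher in the Xi-Cast plate. Tapbp did not follow the heavy chains, with means of 10.0 with and 8.90 without Dppa4 reads in the Xi-Mus plate and 6.74 and 8.82 in the Xi-Cast plate. Nlrc5 had means of 0.282 with and 0.237 without Dppa4 reads in the Xi-Mus plate and 0.706 and 1.49 in the Xi-Cast plate. At days 8, 9 and 10 the Nlrc5 means were 1.01, 1.70 and 0.443 with Dppa4 reads and 2.04, 1.72 and 1.63 without. Psmb9 ran opposite to the light and heavy chains. In the Xi-Mus plate it had reads in 15 of 38 cells with Dppa4 reads (39.5%, 24 to 56.6%) and 6 of 42 without (14.3%, 5.43 to 28.5%). In the Xi-Cast plate it had reads in 4 of 33 cells with Dppa4 reads and 0 of 33 without, whose interval reached 10.6%. The intervals overlapped in both plates.

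Median reads per cell were 710457 with and 642922 without Dppa4 reads in the Xi-Mus plate and 689382 and 733620 in the Xi-Cast plate. Krt8 was lower with Dppa4 reads, at 25.7 against 350.5 in the Xi-Mus plate and 85.1 against 275.8 in the Xi-Cast plate, and Nanog was higher, at 31.4 against 8.53 and 32 against 12.2. Epcam, an epithelial marker, did not follow Krt8 in the Xi-Mus plate, at 94.4 with and 80.0 without Dppa4 reads. In the Xi-Cast plate Epcam was at 63.2 and 87.3. The part of these other changes in the class I difference was not tested. At day 8 the 10 of 82 cells with Dppa4 reads had a B2m mean of 16.6 against 31.5 in the others and an H2-K1 mean of 16.3 against 22.1. At day 9 the B2m means were 23.9 in the 10 cells with Dppa4 reads and 26.6 in the others, and at day 10 they were 20.1 in 13 cells and 40.9 in 67. Without the day 10 cell with blood and macrophage markers, which had no Dppa4 reads, the mean of 40.9 became 35.4. Sums of both heavy chains under 10 were found at day 9 in 3 of 10 cells with Dppa4 reads and 2 of 73 without, at day 8 in 1 of 10 and 1 of 72, and at day 10 in 2 of 13 and 3 of 67. Heavy chain sums under 10 were found at day 12 in 25 of 38 Xi-Mus cells with Dppa4 reads (65.8%, 48.7 to 80.4%) and 2 of 42 without (4.76%, 0.582 to 16.2%), and in 18 of 33 (54.5%, 36.4 to 71.9%) and 1 of 33 (3.03%, 0.0767 to 15.8%) of the Xi-Cast cells.

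**Figure D4:**
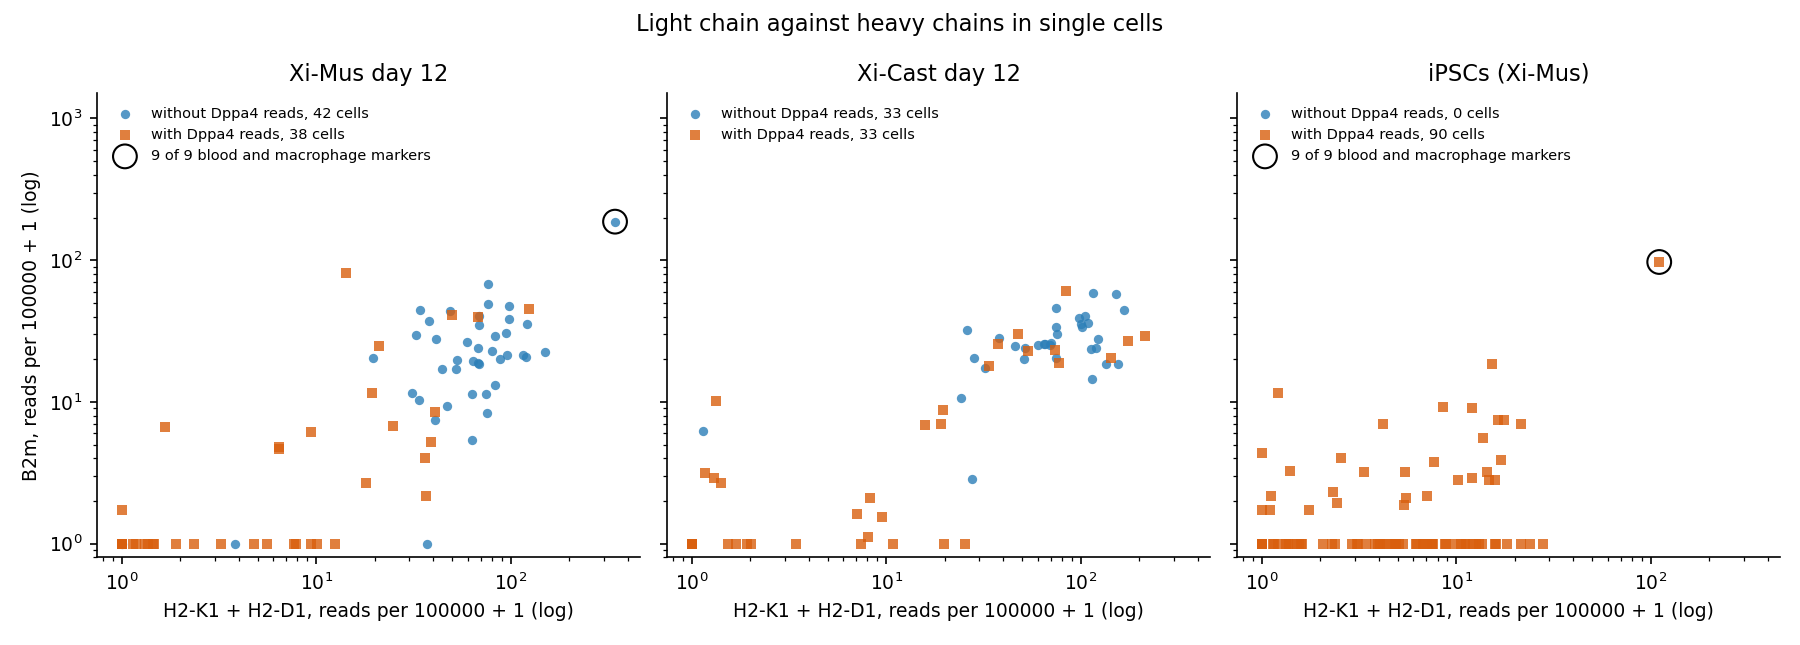
B2m against the sum of H2-K1 and H2-D1 in single cells of the Xi-Mus plate of day 12, the Xi-Cast plate of day 12 and the iPSCs, both axes as reads per 100000 plus 1 on a log scale. Squares are cells with and circles cells without Dppa4 reads, and open rings mark cells with reads of all 9 blood and macrophage markers. Most cells without Dppa4 reads sat at high light and heavy chain levels, and 25 of 38 Xi-Mus cells with Dppa4 reads had a heavy chain sum under 10.

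Light and heavy chains varied together over the cells of day 12. Correlations within the cells with or without Dppa4 reads were not calculated. Spearman's rho between H2-K1 and H2-D1 was 0.77 over the 80 Xi-Mus cells and 0.81 over the 66 Xi-Cast cells of day 12, and between B2m and H2-K1 it was 0.77 and 0.74. Without the cell with blood and macrophage markers both Xi-Mus values were 0.76. At day 8 the same values were 0.44 and 0.07 over 82 cells, and in iPSCs 0.35 and 0.17 over 90 cells, or 0.33 and 0.13 without that plate's cell with these markers. Tapbp was little related to H2-K1 at day 12, with a rho of 0.14 (0.12 without that cell) and 0.02. These correlations are over cells of 1 plate each that share a library pool.

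At day 0 the cells were divided by reads of both Mki67 and Top2a, genes of dividing cells. B2m had a mean of 73.8 in cells with and 95.8 in cells without them, H2-K1 8.85 and 9.79, and H2-D1 14.7 and 14.3. Tap1, with reads in only 29.1% of all day 0 cells, was at 0.605 and 2.33, and Tapbp was at 6.82 and 11.5. The number of class I genes with reads in a cell had a median of 4 of 9 in each group except the iPSCs, where it was 3, and 5 iPSCs had reads of none.

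Over the 7 group means the genes most like each class I gene were found by Pearson's r of log2(mean + 1) among 6306 genes that reached a mean of 5 in any group. For H2-D1 they were Map4, Casp8 and then H2-K1, with r = 0.98 for H2-K1. The patterns nearest to H2-K1 were those of Rgs12 and Gprc5a (r = 0.99 for both), and the nearest to B2m were Cfap43 and Map3k20 (r = 0.99 for both). B2m had an r of 0.52 with H2-K1, 0.66 with H2-D1 and 0.78 with Tapbp, whose nearest gene was Srsf5 (r = 0.98). With 7 points, of which 5 are neighbours in time, and 6306 genes to choose from, these values describe the 7 groups alone.

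The other class I heavy chains were mostly low. Of the 19 measured genes of that list, 1 reached a mean of 5 in day 0 or iPSCs: Fcgrt, the neonatal Fc receptor chain that also pairs with B2m, at 6.53 at day 0, 0.388 at day 8 and 0.579 in iPSCs. In iPSCs against day 0, 3 of the 19 were at least 2-fold lower (Mr1, Hfe and Fcgrt) and 1 higher (all genes: 8.21% and 8.93%). The higher gene was H2-M5, at 0.00347 at day 0, 1.14 at day 12 and 4.48 in iPSCs with reads in 56.7% of them, and it was named after its values were seen. H2-T23 was at 0.905 at day 0 and 0.467 in iPSCs.

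Of the general chaperones and trimming peptidases, 1 of 11 was at least 2-fold lower and 2 were higher in iPSCs against day 0 (all genes: 8.21% and 8.93%), with a median log2 ratio of -0.43 beside -0.87 for the 9 class I genes. Pdia3, the disulfide isomerase of the loading complex, had means of 187 at day 0, 103 at day 8 and 68.3 in iPSCs. Calr (calreticulin) was at 82.5 at day 0 and 48.9 in iPSCs. Thop1, a peptidase of the cytosol, was at 7.83 at day 0, 31.7 at day 8 and 27.4 in iPSCs, and Lnpep, an endosomal peptidase, at 3.0, 7.72 and 1.45. Ide, an insulin-degrading peptidase, was at 2.98, 4.26 and 8.52 in day 0, day 8 and iPSCs, and Blmh, a cytosolic peptidase, at 12.6, 30.2 and 21.2.

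Among 8 proteasome partners, 1 was at least 2-fold higher in iPSCs than at day 0 and none lower (all genes: 8.93% and 8.21%), with a median log2 ratio of 0.62. This was Psmb10, a further inducible subunit, at 3.92 at day 0, 8.87 at day 12 and 11.4 in iPSCs. The constitutive subunits that Psmb8 and Psmb9 replace, Psmb5 and Psmb6, were at 7.44 and 42.5 at day 0 and at 14 and 84.6 in iPSCs. Psmb7, the counterpart of Psmb10, was at 16.8 and 29.7, and the assembly factor Pomp at 29.3 and 40.8. Psme2, part of the PA28 activator, was at 8.79 at day 0, 2.76 at day 8, 11.9 at day 12 and 7.63 in iPSCs.

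Of 18 regulators of class I transcription, a list that holds Nlrc5, 3 were at least 2-fold lower and 5 higher in iPSCs than at day 0 (all genes: 8.21% and 8.93%). Rela, the p65 subunit of NF-κB, was at 15.5 at day 0, 11.7 at day 8, 8.08 at day 12 and 2.26 in iPSCs. Irf1, an interferon-induced activator, was at 1.84 at day 0, 1.01 at day 8, 12.4 at day 12 and 11 in iPSCs, and at 3.95 in Xi-Cast cells of day 12. The Polycomb subunits, silencers of many genes, had higher means both at day 8 and in iPSCs than in MEFs. Eed was at 5.60 at day 0, 12.3 at day 8 and 31.7 in iPSCs. Suz12 was at 1.28, 3.74 and 8.35 and Ezh2 at 1.43, 6.65 and 8.19 in the same groups. Nfyb, a subunit of the CCAAT-binding factor NF-Y, was at 5.03 at day 0, 7.29 at day 8 and 18.0 in iPSCs.

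Of 13 measured interferon receptor and signalling genes, 5 were at least 2-fold lower, 1 was higher and 7 lay within 2-fold in iPSCs against day 0 (all genes: 8.21% and 8.93%), with a median log2 ratio of -0.92. Ifngr2, a chain of the interferon gamma receptor, was at 13.7 at day 0, 0.427 at day 8 and 0.804 in iPSCs. Its partner Ifngr1 was at 8.79, 5.25 and 0.715, and the kinase Jak1 at 28.5, 9.94 and 3.64. Ifnar1, a chain of the type I interferon receptor, was at 7.39, 2.98 and 3.44 in the same groups. Ptpn2, a phosphatase that limits this pathway, was the gene that was higher, at 5.79 at day 0 and 13.3 in iPSCs.

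Of 23 measured interferon-stimulated genes, 2 were at least 2-fold lower and 4 higher in iPSCs than at day 0 (all genes: 8.21% and 8.93%). Their median log2 ratio was -0.05. Ifitm3, a restriction factor, was at 53.9 at day 0, 2.35 at day 8, 23.7 at day 12 and 67 in iPSCs. Bst2 (tetherin) was at 2.40, 14.6, 7.24 and 5.88 in the same groups, and Oas1a, an antiviral synthetase, at 0.124, 0.564, 2.51 and 5.26. Irgm1, an interferon-induced GTPase, was at 2.76, 0.0416, 2.44 and 5.69. The class II genes were low, and of these 7 genes H2-Eb1 was the only one at least 2-fold higher in iPSCs than at day 0 (all genes: 8.93%). It was at 0 at day 0, 4.44 at day 8 and 3.58 in iPSCs, and was named after its values were seen. Of 5 measured NKG2D ligand genes, whose products mark cells for natural killer cells, none differed by 2-fold between iPSCs and day 0 (all genes: 8.21% lower and 8.93% higher).

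**Figure D5:**
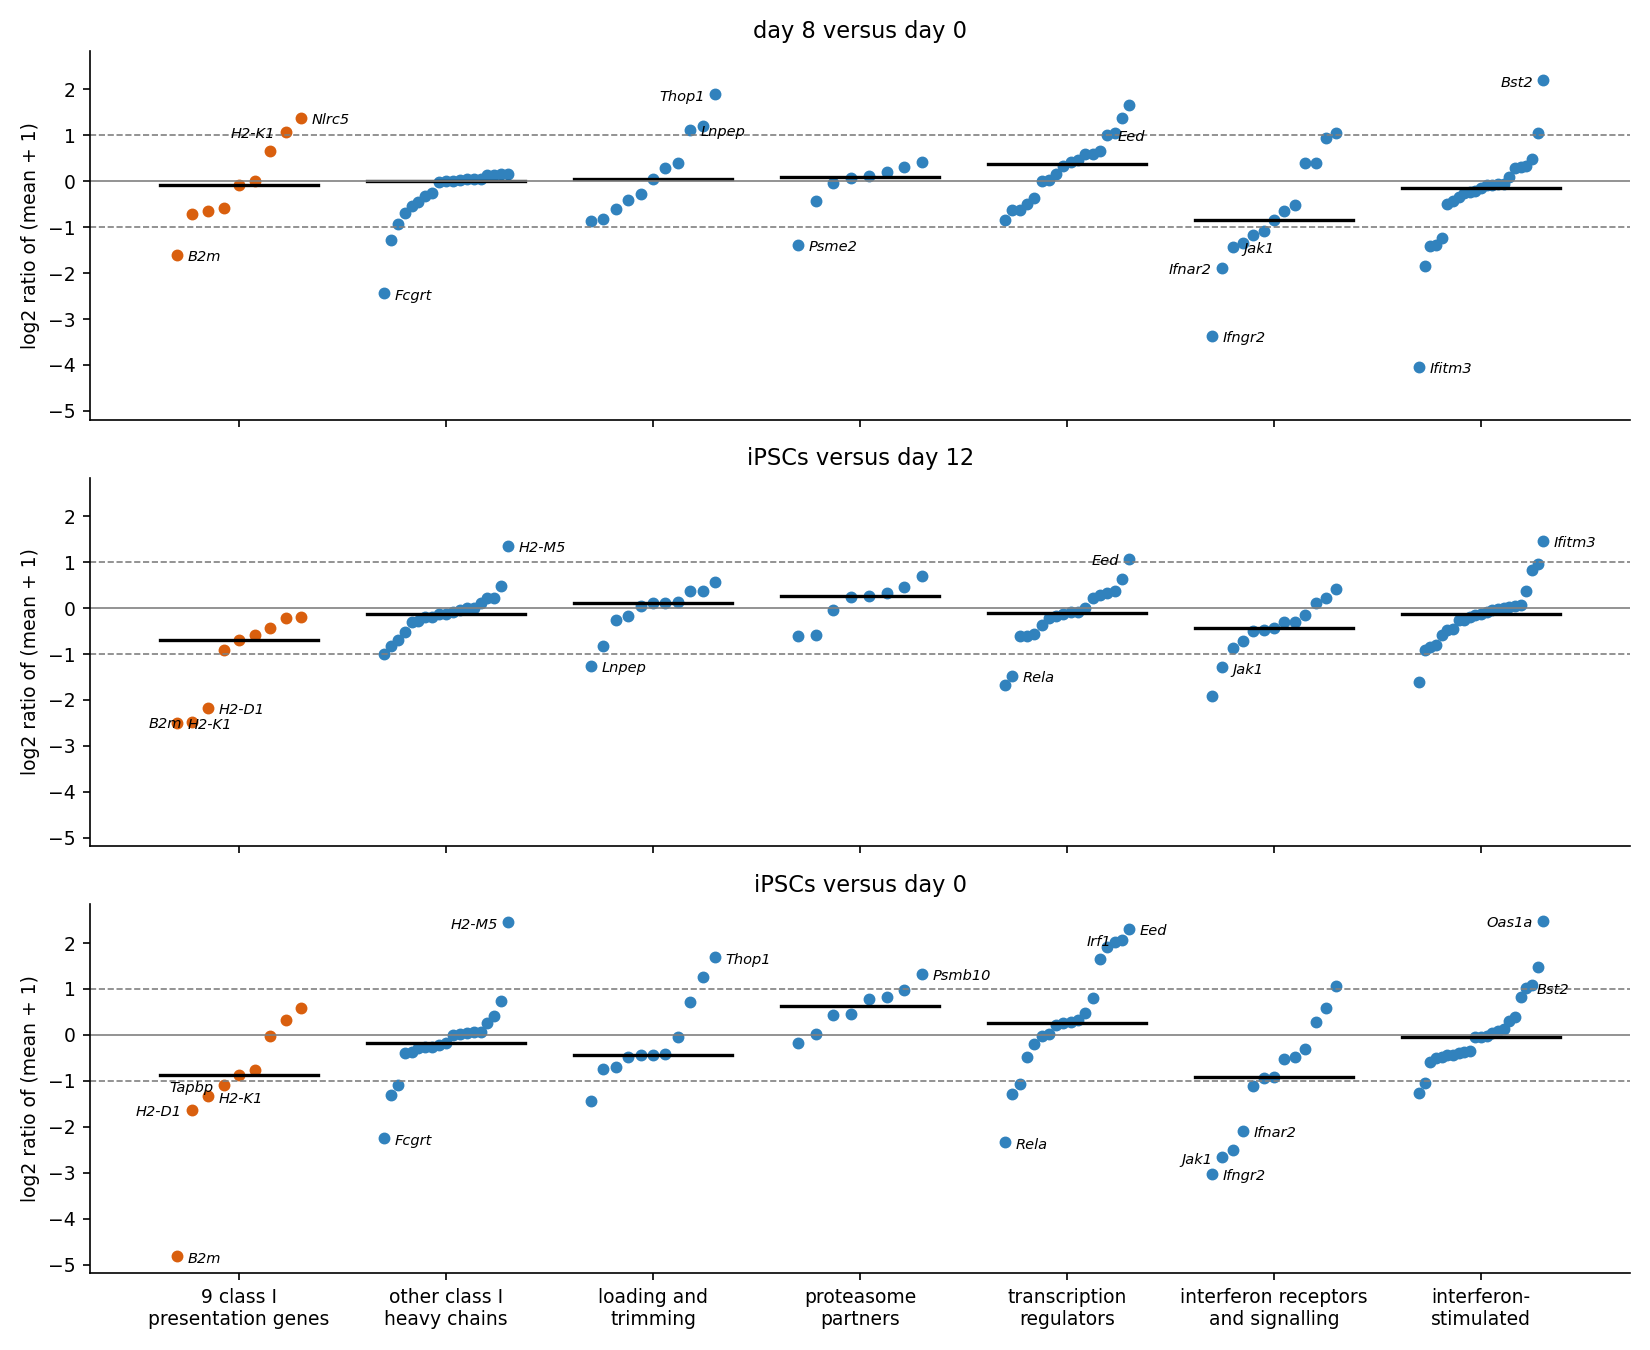
Log2 ratios of means plus 1 for day 8 against day 0, iPSCs against day 12 and iPSCs against day 0, for the 9 class I genes and 6 lists of related genes, with each gene as a point, the list median as a bar and dashed lines at 2-fold. Comparisons that share a group are not independent. B2m (-4.82) was the lowest point of the iPSC to day 0 panel.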

How the data were processed

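Single cells were profiled by Smart-seq2, which reads whole polyadenylated transcripts without molecular identifiers and without strand. According to the methods, the authors mapped single-end reads of 50 bases to mm10 (STAR 2.5.3a), counted uniquely aligned reads per gene (featureCounts, GENCODE vM16) and kept cells by genes detected and mitochondrial share. The deposited values were the natural log of 1 + reads per 10000 reads of a cell: each column summed to 10000 after the log was undone, although the methods state 100000. Values were converted to reads per 100000, and whole reads were recovered for 100% of values above 0 (within 0.01 reads). Wells numbered 96 per group and 567 of 672 cells were in the table.

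Group means were compared as log2 ratios with a pseudocount of 1 and counted past 2-fold (Python 3.11.15, pandas 2.3.3, scipy 1.17.1). The calculation was tested on simulated data. Genes named from each list were up to 6 with a mean of at least 5 and the largest log2 ratio for iPSCs or day 8 against day 0; genes near 0 could be named as such. No doublet caller was run. The genes and lists were chosen with earlier results of these data known. The windows and 50-base words came from RefSeq GRCm38.p6 and GENCODE M21. Alternatives changed the pseudocount, scaling, cells and depth.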

Additional observations from a re-analysis of the deposited data

How the results depend on the processing

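With each group taken as 1 plate, every count of 2-fold differences is a description. All 12 log2 ratios of at least 1 in size kept their sign in all 84 recalculations. Those with another pseudocount could not have reversed a sign. With a pseudocount of 0.1 the genes at least 2-fold lower numbered 4 at day 8 against day 0, 2 at day 12 against day 10, 5 in iPSCs against day 12 and 3 in Xi-Cast against Xi-Mus cells, and the genes at least 2-fold higher numbered 2 at day 10 against day 9, 3 at day 12 against day 10, 1 in iPSCs against day 0 and 1 in Xi-Cast cells. With a pseudocount of 5 the lower genes numbered 0 at day 12 against day 10 (B2m lost, log2 ratio -0.93), 2 in iPSCs against day 0 (B2m and H2-D1) and 0 in Xi-Cast cells, and the higher genes 0 at day 8 (H2-K1 and Nlrc5 lost). With median-ratio scaling 5 genes were lower in iPSCs against day 0 (Tap1 added), 1 was higher at day 8 (Nlrc5) and 1 at day 10 against day 9 (Tapbp). Among genes that reached a mean of 5, 1 was higher at day 8 and 0 were lower in Xi-Cast cells. Leaving out the highest cell of each gene, the shallow cells or the cells with blood and macrophage markers, or summing reads over cells, left every count within 1.5 times. The cells with blood and macrophage markers were left out as a choice made after seeing the data. After thinning to 100000 reads, 4 of 63 shares left their intervals: Tapbp at day 9 (64.2%), H2-D1 at day 12 (77.5%), and H2-K1 (52.3%) and H2-D1 (55.7%) in iPSCs. No paired analysis was possible because the replicate numbers only name the wells of a plate. At these depths, Tap2, Psmb9 and Nlrc5 had reads in few cells of most groups.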
